A study of Arabidopsis thaliana with 6 samples.

Results

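The serine carboxypeptidase-like (SCPL) genes of Arabidopsis thaliana form a family of 51 numbered genes in the RefSeq table of the TAIR10.1 assembly. The genes described here were chosen by name: every probe set that the platform annotation pairs with 1 gene whose symbol is scpl followed by a number. This gave 29 genes, each with 1 probe set, among 13356 genes so named on the array. Of the other 22 family genes, 3 share a probe set with a second gene (scpl36, scpl37 and scpl39) and 19 are unnamed here. Those 19 include SNG1, SCPL19 and BRS1, and of the 19 genes numbered below 20, only scpl16 and scpl18 are among the 29.

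Serine carboxypeptidases use a serine, an aspartate and a histidine to cut the last amino acid from a protein chain. In plants the same protein fold also serves acyltransferases, which take an acyl group from a glucose ester and pass it to another small molecule. SNG1 and SCPL19 of Arabidopsis make sinapoylmalate and sinapoylcholine in this way, and BRS1 is a secreted family member tied to brassinosteroid signalling. In rice, the family member GS5 affects grain size. Most of the proteins carry a signal for the secretory pathway, and SCPL49, also named carboxypeptidase Y, is known as a vacuolar enzyme. For most of the numbered genes no substrate is given in the sources used here.

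Transcripts were measured in suspension-cultured cells with 6 ATH1 arrays from Affymetrix. Control cultures gave 3 of them, and cultures with 0.1 mM isoxaben the other 3. Isoxaben is a herbicide that blocks cellulose synthesis. All cultures grew in Murashige and Skoog medium with sucrose, naphthalene acetic acid and kinetin, and the labels name neither an ecotype nor a length of treatment. They do not say that replicates were separate cultures, so a p-value sets a difference only against the scatter within these groups. That scatter may be technical. The titles place the arrays in 2 sets, the first with replicate 1 of each group and the second with replicates 2 and 3. Isoxaben replicate 1 carries the code DCB in its source name, against its title and treatment label. The calls of the genes that rose are also given without it, and the values of named genes outside the family are given only with it.

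The deposited values are linear signal intensities, scaled by the authors to a common trimmed mean, and with 3 arrays a group their number sets the precision. Control replicate 1 stood apart in the scanner notes, with 7023 outlier cells against 160 to 613 on the other 5 arrays, and had the highest median signal (42.0 against 31.6 to 37.8). It was the highest control array for 18 of the 29 SCPL probe sets and for 53.8% of all probe sets. In RNA from a whole culture, fewer cells of a type and less RNA per cell cannot be told apart. Of 37 marker genes for leaf, root hair, xylem, guard cell, seed and pollen, 3 had a probe set named here. Their signals stayed low: 10.5 to 42.1 for FMA of guard cells, and 11.0 to 18.4 for EXPA7 and 2.6 to 10.2 for EXPA18 of root hairs. None of the 3 passed the filter described below, and without it EXPA18 was called higher with isoxaben (0.31 ± 0.09 on the log2 scale; limma, adjusted p = 0.0369). In that fit EXPA7 (0.14 ± 0.14, limma adjusted p = 0.528) and FMA (-0.12 ± 0.28, limma adjusted p = 0.804) were not called. The part of root hair cells in the results was not tested.

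Isoxaben cultures were set against control cultures to see which family members differ in transcript level with the herbicide. Among the 29 SCPL genes, scpl26, scpl29, scpl20, scpl50, scpl48 and SCPL45 rose. Their folds on the scale of the test ran from 1.60 for SCPL45 to 3.33 for scpl26. SCPL49, scpl42 and scpl46 did not pass, and no tested member fell, 0 also at an unadjusted p under 0.05. The other 20 were too dim for it, with a mean under the 40th percentile of all probe sets, which corresponds to a signal of 22.1. The test was limma's on log2(signal + 16), a scale that understates the change of dim genes, with Benjamini-Hochberg adjustment over 13648 probe sets. It called 56.6% of those probe sets, 29.4% as higher and 27.2% as lower.

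**Figure D1:**
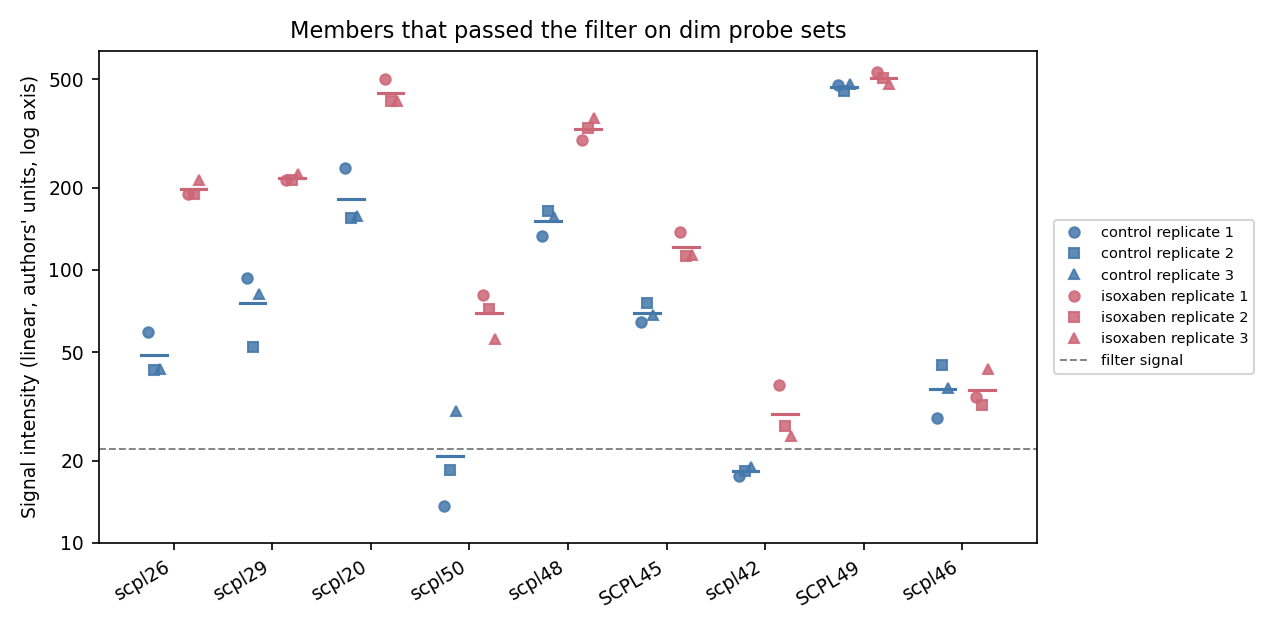
Signal intensity of the 9 members that passed the filter on dim probe sets, on each array (points, log axis, in the authors' units), with group means (short lines) and the filter signal (dashed). The 3 isoxaben arrays lie above the 3 control arrays for each gene except scpl46, and the gap is widest for scpl26.

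The gene scpl26 (AT2G35780) had the largest change of the family members. Its signal was 59.3, 43.1 and 43.4 on the control arrays and 190.5, 189.9 and 213.3 with isoxaben. Every isoxaben array thus exceeded every control array by a wide margin. The means were 48.6 ± 9.27 (SD, n = 3) and 197.9 ± 13.3, and their ratio was 4.07. On the log2 scale the change was 1.73 ± 0.13 (SE; limma, adjusted p = 3.36e-06), larger in size than that of 93.8% of tested probe sets.

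For scpl29 (AT4G30810) the control signals were 93.2, 52.1 and 81.3, and the isoxaben signals 213.8, 212.8 and 224.8. The controls scattered widely, with a coefficient of variation of 28.0%, while that of the isoxaben arrays was 3.07%. The log2 change was 1.38 ± 0.17 (limma, adjusted p = 7.38e-05) and the ratio of means 2.87.

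The brightest of the genes that rose was scpl20 (AT4G12910), whose signals were 235.3, 154.7 and 157.2 in control and 498.7, 417.0 and 416.4 in isoxaben cultures. In each group replicate 1, the array of the first title set, was the highest. The change was 1.23 ± 0.16 (limma, adjusted p = 0.000116). Without control replicate 1 it was 1.41, and without isoxaben replicate 1 it was 1.15.

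For scpl48 (AT3G45010) the array of the first title set was the lowest in each group. Its signals were 133.0, 164.8 and 155.7 against 299.5, 330.2 and 359.0, and the change was 1.05 ± 0.12 (limma, adjusted p = 4.87e-05). SCPL45 (AT1G28110) had the smallest change of the genes that rose, from 64.6, 75.6 and 68.5 to 137.4, 112.9 and 113.2. Its groups did not overlap, and the change was 0.68 ± 0.12 (limma, adjusted p = 0.00103). The 95% interval of SCPL45, 0.40 to 0.95, lay wholly below that of scpl26, 1.44 to 2.03.

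The gene scpl50 (AT1G15000) was near the filter signal without isoxaben. It had control signals of 13.6, 18.5 and 30.5 and isoxaben signals of 80.8, 71.8 and 55.8. Its control mean of 20.9 ± 8.70 lay under the filter signal, so it was its isoxaben signals that brought it past the filter. The change was 1.23 ± 0.19 (limma, adjusted p = 0.00042) and depended on the pseudocount: it was 1.75 with a pseudocount of 1 and 0.65 with 64. Of the other members tested, scpl42 also had its control mean under the filter signal, and the remaining 7 had both group means above it.

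Among the members that did not pass, SCPL49 (AT3G10410), the carboxypeptidase Y named above, had signals of 477.7, 451.0 and 480.1 in control and 529.0, 504.7 and 481.9 in isoxaben cultures. The lowest isoxaben array lay just above the highest control array. The change was 0.10 ± 0.10 (limma, adjusted p = 0.393), with a 95% interval of -0.11 to 0.31. This interval lies below those of all 6 genes that rose.

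The signals of scpl46 (AT2G33530) were 28.7, 44.7 and 36.9 against 34.1, 32.0 and 43.2, and the groups overlapped fully. Its change was -0.00 ± 0.16, with an interval of -0.37 to 0.36. For scpl42 (AT5G42240) the signals were 17.6, 18.4 and 18.9 against 38.0, 26.7 and 24.6. No isoxaben array overlapped the controls, but the isoxaben arrays were spread, and the change of 0.40 ± 0.16 missed the threshold (limma, adjusted p = 0.0592). Limma called scpl42 higher with array weights (0.31, adjusted p = 0.0214) and with a single prior variance (adjusted p = 0.0282), and its adjusted p over all alternatives ran from 0.0214 to 0.214.

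Read over the 9 members that passed the filter, 6 calls make 66.7%, beside 56.6% of all tested probe sets. Of the 9, 5 rose by at least 2-fold, beside 11.0% of tested probe sets, and none fell that far, beside 9.92%. That count of 5 depends on the scale: with a pseudocount of 64, the log2 changes of scpl48 (0.87) and scpl50 (0.65) were under 2-fold. The change of scpl48 was also under 2-fold without control replicate 1 (0.97). Groups did not overlap for 8 of the 9, with isoxaben higher in each. Over all tested probe sets the groups were apart in 63.2%, with isoxaben higher in 32.8% and lower in 30.4%. The median change was 1.05 among the 9 and 0.01 over all tested probe sets. Since scpl50 and scpl42 passed through their isoxaben signals, the filter itself tilts the shares among the 9 towards higher members. These counts describe the brighter members and not the family. Of the 7 members with both group means above the filter signal, 5 were called higher. No share over all probe sets was counted on that basis.

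**Figure D2:**
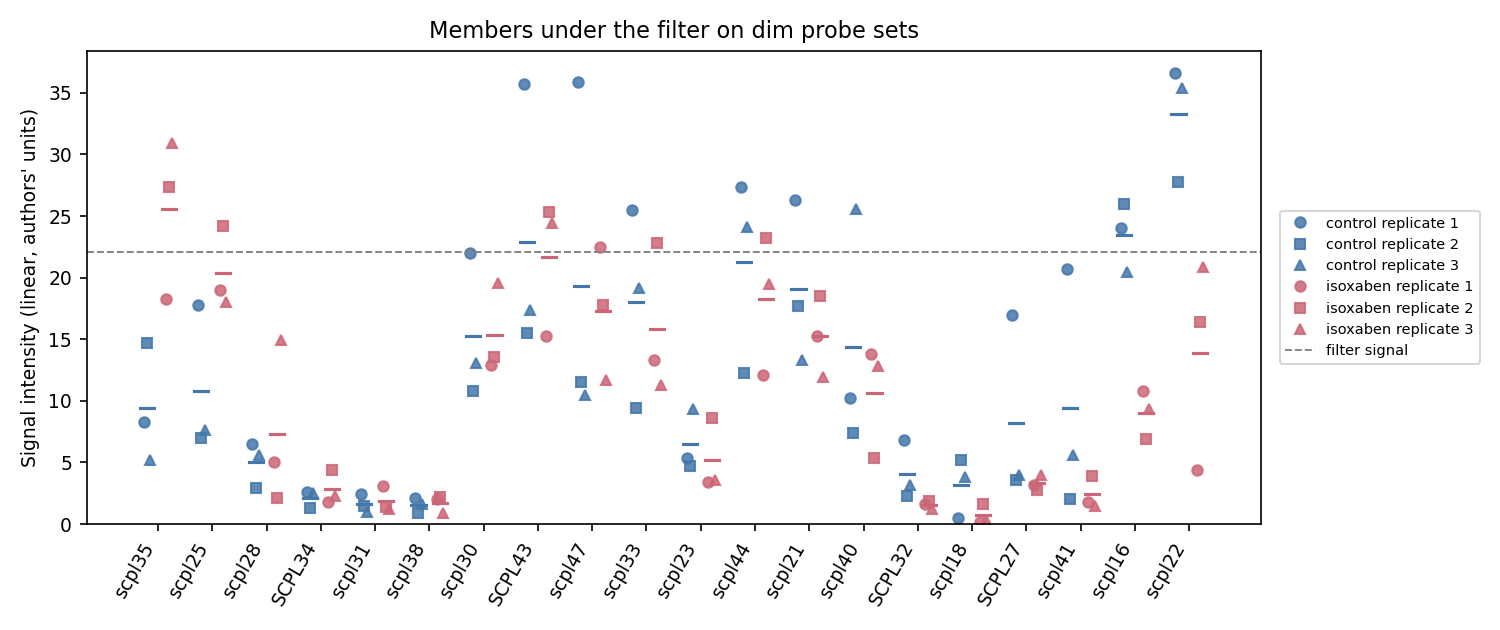
Signal intensity of the 20 members under the filter on dim probe sets, on each array (points, linear axis, in the authors' units), with group means (short lines) and the filter signal (dashed). For scpl16 and scpl22 the control arrays lie above the isoxaben arrays and for scpl35 below them, while most other genes overlap; control replicate 1 is high for SCPL43, scpl47, SCPL27 and scpl41.

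When the filter was dropped, all 29 members could be tested in a fit over 22746 probe sets, of which 34.5% were called (18.1% higher, 16.3% lower). Of the members, 9 were called, or 31.0%, with 7 higher and 2 lower. The share of family members called was thus near that of the array. Of the 29, the same 5 rose by at least 2-fold, beside 7.03% of all probe sets, and 0 fell by as much, beside 6.23%. Groups did not overlap for 13 of the 29 (44.8%), 10 with isoxaben higher and 3 lower. Over all probe sets this share was 45.0%, made up of 23.6% higher and 21.4% lower. The median change of the 29 was 0.01, beside -0.01 for all probe sets. Among the 20 dim members 3 were called (15.0%), 1 higher and 2 lower. Of all probe sets under the filter 9.39% were called, 5.57% higher and 3.81% lower. Groups did not overlap for 5 of the 20, beside 17.8% of those probe sets.

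The dim gene scpl16 (AT3G12220) fell. Its signals were 24.0, 26.0 and 20.5 in control and 10.8, 6.9 and 9.3 in isoxaben cultures, a change of -0.66 ± 0.13 (limma without a filter, adjusted p = 0.00632). Every isoxaben array lay below every control array. It was called in each alternative with a test (adjusted p = 0.00154 to 0.038), and its change ranged from -1.31 with a pseudocount of 1 to -0.26 with 64. In the gene order of the RefSeq table scpl16 lies beside scpl14, and near scpl17 and SCPL15, in a run of family genes of which it alone was named here. Gene scpl17 is known for adding benzoyl groups to glucosinolates in seeds.

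The second gene called lower was scpl22 (AT2G24000), with signals of 36.6, 27.8 and 35.4 against 4.4, 16.4 and 20.9. The change was -0.76 ± 0.24 (limma without a filter, adjusted p = 0.0419), and 1 array, isoxaben replicate 1, was far below the others. Without that array the change was -0.51 and not called (limma, adjusted p = 0.0917). The call was also lost without control replicate 1, 2 or 3 or isoxaben replicate 2 (adjusted p = 0.0602 to 0.113). Within the second title set it was -0.46 (limma, adjusted p = 0.0881).

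The gene scpl35 (AT5G08260) rose from 8.3, 14.7 and 5.2 to 18.3, 27.4 and 30.9. The change was 0.71 ± 0.19 (limma without a filter, adjusted p = 0.0228), and all its control signals were under the filter signal. Without control replicate 3, isoxaben replicate 2 or isoxaben replicate 3 the call was lost (limma, adjusted p = 0.0933, 0.0746 and 0.0784). For scpl25 (AT3G02110) signals of 17.8, 7.0 and 7.6 stood against 19.0, 24.2 and 18.0. The groups came close without overlapping, and control replicate 1 was near the isoxaben level. The change was 0.46 ± 0.18 (limma without a filter, adjusted p = 0.0954), and the gene was not called. It was called in 4 alternatives: without control replicate 1 (0.64, adjusted p = 0.00836), with array weights (0.64, adjusted p = 0.00215), with quantile normalization (0.47, adjusted p = 0.0283) and within the second title set (0.67, adjusted p = 0.0172). In the first title set its change was 0.05.

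The remaining 16 dim members were not called. Of all 20 dim members, 10 had no array at or above the filter signal, and 6 stayed under 10 on every array: scpl31, scpl18, SCPL32, scpl38, scpl23 and SCPL34. Low signals do not show that a gene is silent. The groups of SCPL32 did not overlap, with signals of 6.8, 2.3 and 3.2 against 1.6, 1.9 and 1.2. Its change was -0.19 ± 0.09, and all these signals lay far under the filter signal. The change of scpl18 was -0.19 ± 0.10 (limma without a filter, adjusted p = 0.19), and it was called without control replicate 1 (-0.30, adjusted p = 0.0163), with array weights (-0.23, adjusted p = 0.0142) and within the second title set (-0.27, adjusted p = 0.0439). In the first title set its change was -0.03.

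In several dim genes 1 control array lay far above the other two. SCPL43 had control signals of 35.7, 15.5 and 17.4, and scpl47 had 35.9, 11.5 and 10.5. SCPL27 (17.0, 3.6 and 4.0) and scpl41 (20.7, 2.0 and 5.6) had the same form. In each of these 4 genes control replicate 1, the array with the most outlier cells, was the high one. In scpl40 it was control replicate 3, with control signals of 10.2, 7.4 and 25.6. The part of single arrays in these values was not tested. None of these genes was called, and the isoxaben signals were 15.3 to 25.3 for SCPL43, 11.7 to 22.5 for scpl47, 2.8 to 4.0 for SCPL27, 1.5 to 3.9 for scpl41 and 5.4 to 13.8 for scpl40.

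The other dim members lay close to the filter signal or below it in both groups. Signals ranged from 12.1 to 27.4 for scpl44, 9.4 to 25.5 for scpl33, 11.9 to 26.3 for scpl21 and 10.8 to 22.0 for scpl30. In each the groups overlapped. Signals of scpl31 ran from 1.0 to 3.1, of scpl38 from 0.9 to 2.2, of scpl23 from 3.4 to 9.3, of SCPL34 from 1.3 to 4.4 and of scpl28 from 2.1 to 14.9. Over all 20 dim members the 95% interval of the change stayed within 1 log2 unit of 0 for 18, and reached past it for scpl22 and scpl35. The pseudocount holds the change of the dimmest genes near 0 on this scale, even where the signals themselves differ severalfold. These intervals therefore set no limit on the fold change in signal of the 18.

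**Figure D3:**
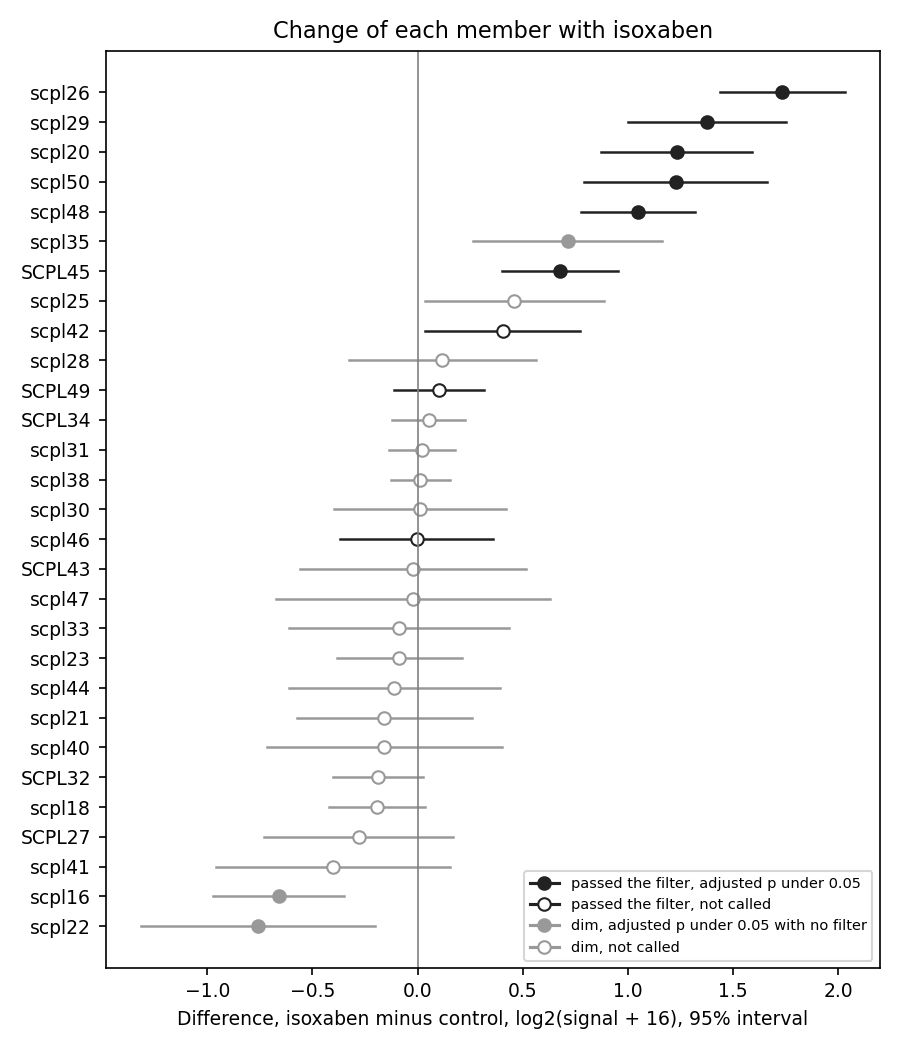
Difference between isoxaben and control on the log2(signal + 16) scale for the 29 members (points), with 95% intervals (lines), from limma with the filter for the 9 brighter genes (black) and without it for the 20 dim genes (grey); filled points passed an adjusted p of 0.05. The filled black points run from SCPL45 at 0.68 to scpl26 at 1.73, and the filled grey points are scpl35, scpl16 and scpl22.

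Some members are neighbours in the genome. By the RefSeq gene order, scpl26 lies next to scpl28, scpl22 next to scpl23, and scpl41 lies 2 coding genes from scpl42. Their changes are set side by side here. While scpl26 rose by 1.73, scpl28 changed by 0.12 ± 0.19, with an interval of -0.33 to 0.56. Beside scpl22, scpl23 changed by -0.09 ± 0.13 with an interval of -0.38 to 0.21. Beside scpl42, scpl41 changed by -0.40 ± 0.24 with an interval of -0.96 to 0.16, and by -0.10 without control replicate 1. The differences within these pairs were not tested. Genes scpl28, scpl23 and scpl41 are dim, and their values come from the fit without a filter. Signals of scpl28 were 2.1 to 14.9, against 43.1 to 213.3 for scpl26. Since the scale understates the change of dim genes, a small value here does not show that a gene was steady. The 6 genes that rose lie on chromosomes 1 (scpl50 and SCPL45), 2 (scpl26), 3 (scpl48) and 4 (scpl20 and scpl29), and none of them neighbours another. RNA of close family members can bind to one another's probes, and how alike these sequences are was not analysed here. All 29 probe sets carry the suffix that Affymetrix gave to sets designed for a single transcript.

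Taken by title set, all 6 genes that rose were higher with isoxaben in each set. This was fixed in advance, since every isoxaben array exceeded every control array for each of these genes. In the first set, which allows no test, their changes ran from 0.93 for SCPL45 to 1.71 for scpl50. In the second set they ran from 0.55 for SCPL45 to 1.87 for scpl26, and all 6 were called (limma, adjusted p up to 0.000859), beside 66.1% of tested probe sets. The 6 had been picked by their calls on all arrays, these included, so their calls within the set are no separate support. The order differed between the sets: scpl50 led in the first and scpl26 in the second. Without isoxaben replicate 1, the array whose source name reads DCB, the 6 genes were called with changes from 0.59 to 1.76 (limma, adjusted p up to 0.00437). In that fit 3703 of the 13648 tested probe sets were called higher and 3505 lower.

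**Figure D4:**
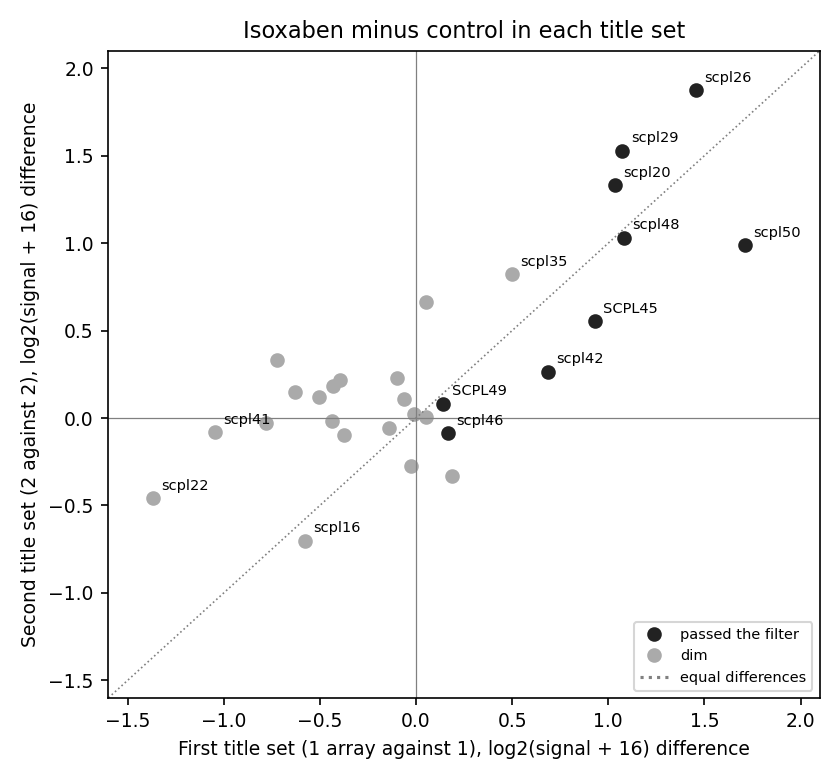
Difference between isoxaben and control on the log2(signal + 16) scale in the first title set (horizontal axis, 1 array against 1) and the second (vertical axis, 2 against 2) for the 29 members; the dotted line marks equal differences. The 6 genes that rose lie in the upper right, scpl50 below the line at 1.71 and 0.99, and scpl22 lies in the lower left at -1.37 and -0.46.

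Other protease and acyl ester genes were listed beside the family. Of 5 tested vacuolar and other proteases, ALPHA-VPE, a vacuolar processing enzyme, rose (22.7 ± 7.42 to 63.2 ± 4.17; log2 change 1.05 ± 0.16). The other 4 fell. BETA-VPE went from 96.6 ± 9.25 to 13.8 ± 2.15 (-1.92 ± 0.14) and NANA, an aspartic protease known from chloroplasts, from 871.0 ± 129 to 266.7 ± 17.4 (-1.64 ± 0.12). GAMMA-VPE (-0.67 ± 0.10) and the aspartic protease APA1 (-0.43 ± 0.12) fell less. Their median was -0.67 and their highest limma adjusted p 0.00923, and ALPHA-VPE and APA1 were named after their values were seen.

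Of 6 tested subtilases, another family of secreted serine proteases, 2 rose and 2 fell, with a median of 0.05. ARA12 (0.75 ± 0.18) and S1P (0.54 ± 0.14) rose, and SBT3.5 (-2.54 ± 0.17) and SBT3.3 (-1.25 ± 0.18) fell. The highest limma adjusted p of these 4 genes was 0.00801, and S1P was named after its values were seen. Whether the SCPL genes differ from the subtilases as a group was not tested.

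Genes of the phenylpropanoid pathway, which supplies the glucose esters that SCPL acyltransferases use, were rarely named here. Of 28 such genes, 7 were represented and 5 were tested. CCOAMT, annotated as a methyltransferase of caffeoyl-CoA, fell from 111 ± 4.10 to 25.4 ± 2.56 (-1.62 ± 0.12; limma, adjusted p = 2.83e-06), and the other 4 did not pass. Their median change, CCOAMT included, was 0.01. Of 22 brassinosteroid genes only the receptor gene BRL1 was named here, chosen after its values were seen, and its change was -0.06 ± 0.18 (limma, adjusted p = 0.8).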

How the data were processed

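Per the labels' protocols, RNA was prepared with a Qiagen kit and hybridised as biotin-labelled cRNA. For 22810 probe sets, the deposited table gives a linear signal intensity on each of the 6 arrays. The authors had scaled the intensity values, since every array had a mean of 100.006 to 100.008 once 2% of values were trimmed from both ends. The algorithm behind the signals is not given in sources used here.

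The 64 control probe sets were left out, and gene names came from the platform annotation, updated by gene identifier with RefSeq's table. Values were taken as log2(signal + 16). Probe sets with a mean below the 40th percentile were dropped, which left 13648. The 2 groups were compared in R 4.3.3 by limma 3.58.1, using lmFit and then eBayes with trend, two-sided and without covariates. Adjusted p-values are Benjamini-Hochberg's, with a threshold of 0.05. The procedure was checked on simulated data with few changed probe sets and independent noise. That setting differs from these data, where 56.6% of tested probe sets were called. Dim members were tested in the same fit with no filter. Groups came from the titles. The members, gene lists and tests were chosen with earlier results of these data known, and every member is named. Protein and promoter sequences were not analysed here. Alternatives were quantile normalization, median centring, pseudocounts of 1 and 64, no filter and a 60th percentile filter, a single prior variance, array weights, a replicate block, a title set block, either title set by itself, and dropping each array in turn. Combining no filter with each of these was chosen after seeing the data.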

Additional observations from a re-analysis of the deposited data

How the results depend on the processing

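All 6 genes that rose were called in every alternative with a test that kept them (scpl50 was dropped by the 60th percentile filter, which left 5 calls), and the count of tested members that rose was 5 to 7 over all alternatives and 6 whichever array was left out. No tested member fell in any of them. Over all probe sets, 2952 to 5258 were called higher and 2974 to 4613 lower. Leaving out single arrays, these counts were 3447 to 4505 and 3229 to 3888. The median change of the tested members, 1.05, was 0.93 with array weights, 1.14 with the 60th percentile filter, 1.12 with a pseudocount of 1 and 0.65 with 64, and 0.97 to 1.11 leaving out single arrays. The median of all 29 without a filter was 0.12 within the second title set and -0.0128 to 0.0718 leaving out single arrays. Of the 2 members called lower without a filter, 1 remained with a pseudocount of 1 and with the replicate block, and 1 to 2 leaving out single arrays. The labels number only the second title set, so the numbers name the arrays rather than pair them: same-numbered arrays deviated together at correlations of 0.207, 0.110 and 0.128, and differently numbered ones of the second set at 0.101 and 0.118. With the replicate block 6 members rose, the counts over all probe sets were 4250 higher and 3913 lower, and the call of scpl22 was lost (adjusted p = 0.0603). The change of scpl46, never called, turned to 0.16 in the first title set and ran from -0.12 to 0.10 leaving out single arrays. That of scpl28 turned to -0.10 in the first title set and ran from -0.10 to 0.28, and that of scpl23 from -0.20 to 0.00157. The causes were not tested. The SE of a change was 0.0598 to 0.279 for dim members (median 0.187) and 0.0950 to 0.194 for tested members, beside a median of 0.142 over all tested probe sets.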
